A study of Mus musculus with 72 samples.

Results

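The genes described here are 42 genes of serum response factor (SRF) and the actin cytoskeleton, listed by symbol and taken from a table of 50600 mouse genes. The list holds Srf itself, the actins, transgelins, calponins, tropomyosins and myosin subunits, vinculin, zyxin, talin, the filamins and alpha-actinins, several LIM-domain proteins and a few regulators of filament turnover. All 42 symbols were found. A gene counted as expressed in a line when at least 3 of its libraries held 10 or more counts, and by that rule 32 to 36 of the 42 were expressed in each of the 6 lines. Acta1 and Tpm2, the skeletal muscle actin and beta-tropomyosin, had too few counts to be tested in any line. Some members reached those counts only through a group in which they were high, namely Fhl2 in 1057, Actg2 in 1064 and Actg2, Tagln and Cnn1 in 1014-Grpr, each through its GRP libraries, and Myh11 in 1057, through its mock libraries. Their tests were not independent of that choice, so they are given below by their counts without a p, and the counts of calls are also given without them. Intervals given with their ratios share that dependence. They describe counting error and are no test of GRP.

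RNA was sequenced from 6 mouse melanoma cell lines to ask what activation of the gastrin-releasing peptide receptor (GRPR) changes in them. Lines 1057 and 1064, from female mice, carry Tyr::NRASQ61K/°; Cdkn2a-/-; Tyr::CreA/°; Cdh1dF/dF and express GRPR of their own. Line 1181, from a male mouse, carries Tyr::NRASQ61K/°; Cdkn2a-/-; °/°; Cdh1dF/dF, so that it has the floxed E-cadherin alleles but no Cre. Line 1014, from a female mouse, carries Tyr::NRASQ61K/°. The latter pair were each transfected with a plasmid, either CMV::Grpr/tGFP, which gave 1014-Grpr and 1181-Grpr, or CMV::tGFP alone, which gave the vector lines 1014-Ctrl and 1181-Ctrl. Every line therefore shares the NRAS transgene, driven in melanocytes by the tyrosinase promoter, and each is 1 culture, so a line is no replicate of another. After 18 h in 0.5% serum the cells received, for 4 h, 0.1% DMSO (mock), 10 nM GRP (the peptide ligand of the receptor), 1 µM RC-3095 (RC, which blocks that receptor), or both agents at once (GRP+RC). Each of the 24 groups had 3 libraries. The labels do not say that these were separate cultures, so the p-values measure only the spread between them, which may be technical.

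SRF is a transcription factor that binds the CArG box, a short AT-rich element flanked by CC and GG. Its partners fall into either of a pair of families. The myocardin-related factors MRTF-A and MRTF-B are held in the cytoplasm by monomeric actin and enter the nucleus when that actin is drawn into filaments, and their targets are largely the genes of the actin cytoskeleton itself, Srf among them. The ternary complex factors, of the Elk family, answer to ERK and act with SRF at immediate early genes. GRPR is a G protein-coupled receptor that signals chiefly through Gq.

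The libraries held 19512882 to 46862053 counts (median 28112904). All 7 melanocyte markers examined were above 1 CPM (counts scaled to library size) in mock libraries of every line, and their summed level was 5426 to 37588 CPM. The 6 smooth muscle markers, which include the members Acta2, Cnn1, Lmod1 and Myh11, summed to 0.513 to 12.4 CPM, and Myocd was at or under 0.074 CPM throughout. The summed level was 0.615 to 37.6 CPM for 7 fibroblast and pericyte markers and 0.534 to 51.9 CPM for 4 macrophage and leukocyte markers. Of the latter Lyz2 carried nearly all and Adgre1 stayed at or under 0.0441 CPM. It was 0.0338 to 6.94 CPM for 3 endothelial markers and 0 to 1.47 CPM for 2 keratinocyte markers. Line 1064 held the upper ends for smooth muscle (9.13 to 12.4 CPM) and for fibroblasts and pericytes (10.5 to 37.6 CPM). The other lines reached at most 5.77 and 7.63 CPM for these. In 2 libraries the RNA went against the label. The library labelled 1014-Ctrl mock replicate 2 held 1557 counts of Ddx3y, a gene of the Y chromosome, and 1165 counts of Grpr, where the other 11 libraries of that line held 0 and at most 1. The library labelled 1181-Grpr GRP+RC replicate 2 held 0 counts of both, where the other 11 held at least 1001 and 216. They stayed in their labelled groups, and results that rest on them are given with and without them.

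The promoters of several members hold CArG boxes, and those of 5 members whose RNA is described below are shown for that reason. In windows from 250 bases before to 50 bases after RefSeq transcript starts (GRCm38.p6), a CArG box was found on either strand for 11 of the 37 members with a window (29.7%) and for 488 of all 27025 genes with a window (1.81%). Counted over windows, the shares were 12 of 48 (25%) for members and 1.63% of 32851 for all genes. The members were listed as genes of SRF, which binds this box. The difference in shares may thus follow from the choice of list, and it was not tested. The stretches follow 5′ to 3′ on the strand of the gene, with CArG boxes in capitals.
Srf, chr17:46556195-46556264, minus strand: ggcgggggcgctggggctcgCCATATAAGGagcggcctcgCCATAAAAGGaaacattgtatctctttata
Actg1, chr11:120348556-120348605, minus strand: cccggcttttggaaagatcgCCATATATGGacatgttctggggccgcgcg
Vcl, chr14:20929151-20929200, plus strand: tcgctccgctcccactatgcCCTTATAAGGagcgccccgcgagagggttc
Cnn2, chr10:79988524-79988573, plus strand: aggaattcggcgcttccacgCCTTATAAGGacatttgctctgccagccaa
Fhl2, upstream start, chr1:43196828-43196877, minus strand: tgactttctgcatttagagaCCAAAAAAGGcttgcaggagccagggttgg
Fhl2, downstream start, chr1:43163963-43164012, minus strand: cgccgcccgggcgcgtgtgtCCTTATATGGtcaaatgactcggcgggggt

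Srf carried a pair of boxes, 82 and 62 bases before its start. The box lay 90 bases before the start in Actg1, 227 in Vcl and 56 in Cnn2, and Fhl2 had 1 box at each of its starts, 96 and 31 bases upstream. Acta1, Myl9, Myl6, Filip1l, Fhl1 and Lima1 were the other members with one. The sequence GGAATG, which TEAD factors bind, was in the windows of 13 of 37 members (35.1%) and 16.6% of all genes, and TGANTCA, which AP-1 binds, in 5 of 37 (13.5%) and 8.97%. Both were searched on both strands, and no GGAATG or TGANTCA match in a member's window overlapped a CArG box. Actg2, Actb, Tagln, Myh11 and Tgfb1i1 had no window. Of the members whose RNA rose on GRP in at least 1 line, described below, 29 had a window and 8 of these held a CArG box (27.6%), Fhl2 among the 8. Of the members that rose in none, 8 had a window and 3 held one (37.5%). These were Acta1, which was not tested in any line, Filip1l, and Fhl1. Filip1l rose in 1064 and 1014-Grpr in a further fit described below. The shares were not compared by a test. A match describes the letters of the window, not binding.

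**Figure D1:**
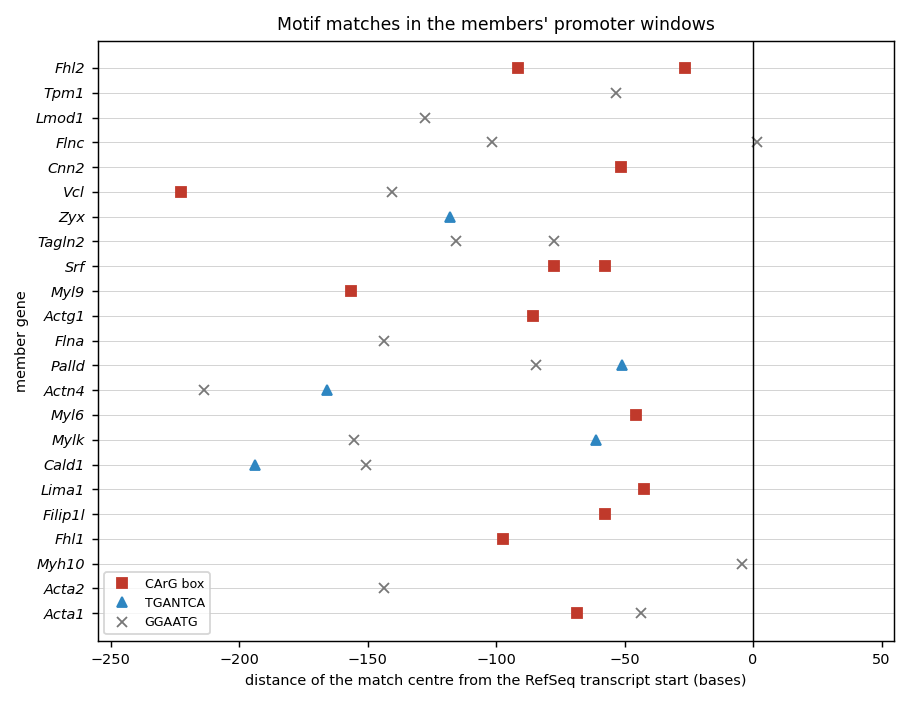
Positions of motif matches in member promoters. Each row is a member, the x axis is the distance in bases from the RefSeq transcript start to the centre of the match, and symbols mark CArG boxes, GGAATG and TGANTCA. The 11 members with a CArG box have its first base between 227 and 31 bases before a start.

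In mock-treated cells the cytoplasmic actins and their binding proteins were among the most abundant members. Actb, beta-actin, was the most abundant member in each line, at 1921 ± 15.1 TPM (transcript abundance scaled for gene length, mean ± SD, n = 3) in 1057 and at means of 2590 to 3056 TPM in the other lines. The highest of these means, in 1014-Ctrl, was 2858 TPM without the library that went against its label, below that of 1181-Grpr (3014 TPM). Cofilin (Cfl1), which severs filaments, lay between 990 and 1496 TPM, and Actg1, gamma-actin, between 545 and 1084 TPM. The LIM protein Csrp1 ranged from 380 ± 11.2 TPM in 1057 to 1916 ± 167 TPM in 1014-Grpr. The widest range among abundant members was that of Tagln2, transgelin-2, at 33.9 ± 11.8 TPM in 1181-Ctrl, 135 ± 8.96 in 1057, 144 ± 28.1 in 1181-Grpr and 997 ± 165 in 1064. Srf was at 33.4 ± 0.794 TPM in 1057 and between 47.7 and 65.8 TPM in the other lines, with spreads that overlapped. The upper end, in 1014-Ctrl, was 58.4 TPM without the library that went against its label. The muscle-restricted members Cnn1, Tpm2, Lmod1, Acta1 and, outside 1064, Acta2 were close to 0.

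The resting lines differed from each other in these genes before any ligand was added. Line 1057 had lower RNA than 1064 for 24 of the 40 members tested in a fit of all 72 libraries and higher RNA for 3, beside 27.8% of all genes lower and 26.8% higher (edgeR quasi-likelihood test, Benjamini-Hochberg adjusted p under 0.05, as throughout). The lower ones included Zyx (zyxin) by 2.13 on the log2 scale (41.3 ± 0.685 against 185 ± 35.7 TPM, adjusted p = 3.85e-15), Mylk (myosin light chain kinase, 11 ± 0.174 against 74 ± 17.4 TPM) and Cnn2 (calponin-2, 15.1 ± 0.82 against 153 ± 93.9 TPM). Cald1, Fhl1 and Pdlim5 were the 3 that were higher. 1181-Grpr had 7 members higher and 1 lower than its vector line, beside 11.5% and 4.17% of all genes. Among them Flnc, filamin C, stood at 10.1, 11.2 and 11.4 TPM against 0.1, 0.14 and 0.13 TPM, and Tagln2 at 170, 114 and 149 TPM against 47.5, 25.6 and 28.7 TPM. Neither gene's values overlapped between the lines. Myl9, the smooth muscle light chain, had 19, 10 and 11 counts against 0 in each vector library. 1014-Grpr and 1014-Ctrl differed in 3 members, Cald1 higher (log2 difference 0.87) and Myh10 and Fhl1 lower, beside 0.536% and 4.15% of all genes. Both lower calls rested on the library that went against its label: Myh10 was at 37.4 TPM in it and 0.04 and 0.03 TPM in the other mock libraries of 1014-Ctrl, and without it only Cald1 passed, beside 0.189% of genes higher and 0.373% lower. With replicate 3 left out of every group 1 member passed in 1014, and 5 in 1181. The receptor lines and vector lines also differ by being separate transfected cultures, which cannot be told apart here from the receptor.

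**Figure D2:**
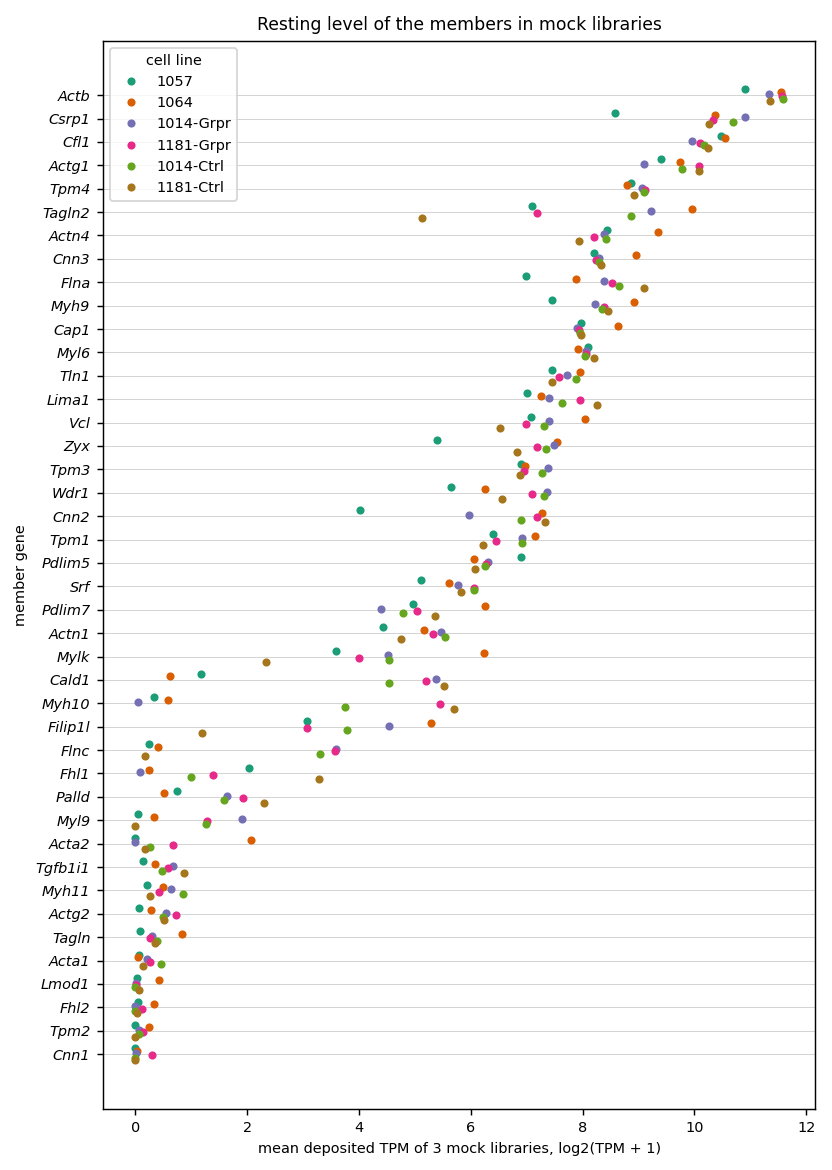
Resting levels of the members in mock libraries. Rows are members, the x axis is the log2 of mean TPM plus 1, and each point is the mean of 3 libraries of 1 line. Actb lies at the right end in every line and Tagln2 spans 33.9 to 997 TPM.

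On GRP members rose in 3 of the 4 GRPR-expressing lines, most of those tested in 1057 and 1014-Grpr and 14 of 36 in 1064, and 0 passed in 1181-Grpr in the fit of that line. In 1057, 25 of the 33 members tested rose and 2 fell, beside 25.7% of all 14195 genes higher and 26.9% lower. In 1014-Grpr, 29 of 35 rose and 0 fell, beside 16.3% and 12.7% of genes. In 1064, 14 of 36 rose and 0 fell, beside 3.62% and 2.76% of genes. When only genes with 10 counts in 3 libraries outside each of the groups compared were fitted, a filter chosen after seeing the data, 24 of 31 members rose in 1057 and 1 fell (beside 25.7% and 27.1% of genes), 26 of 32 and 0 in 1014-Grpr (16% and 13.1%) and 13 of 35 and 0 in 1064 (3.62% and 2.79%). The median log2 fold change over these members was 0.46 in 1057, 0.73 in 1014-Grpr and 0.92 in 1064. With a fold change above 2 asked for as well (log2 above 1), 4 members rose in 1057, 12 in 1014-Grpr and 9 in 1064, beside 4.96%, 3.16% and 1.52% of all genes, and these include the 1, 3 and 1 members that entered through their GRP libraries. In bulk RNA a change in the share of cells that express a gene and a change in RNA per cell cannot be told apart. On the TPM scale, where 36.2% of the genes called in 1057 were higher in place of 48.8%, 23 members rose there and 2 fell. In one fit of all 72 libraries, with 1 shared estimate of the spread, 13 members passed in 1057 and 26 in 1064.

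The libraries of 1064 varied together by replicate number, and a fit with that number as a block called 29 of its 36 members higher, beside 20.5% of all genes higher and 23% lower, or 28 of 35 without Actg2, beside 20.8% and 23.3%. Leaving out 1 library changed the unblocked count most when it was mock replicate 1 or 2 (4 members rose), GRP replicate 1 (5) or GRP replicate 2 (7). Where a value of 1064 is given below and the block changed the call, the blocked value stands beside it. The block also called Flnc, Mylk, Lima1, Cfl1, Palld and Filip1l higher in 1064, and their values in that line are not given. In 1014-Grpr the block gave 32 higher and 1 lower, beside 27.3% and 26.3% of genes, or 29 and 1 of 32 without the members that entered through GRP, beside 27.2% and 27.1%. The calls it added there were Cald1, Palld and Filip1l, higher, and Myh11, lower.

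In 1181-Grpr 0 of the 34 members tested passed, 0 had an unadjusted p under 0.05, and DESeq2 also called 0, beside 0% of all genes. The median log2 fold change was 0.01 and 33 of the 34 lay within 0.3 of 0. Without the library that went against its label and with the block, 1 member, Tpm1, rose by 0.25 on the log2 scale (adjusted p = 0.0187), beside 0.413% of genes higher and 0.0406% lower. The vector lines 1014-Ctrl and 1181-Ctrl gave 0 calls among 32 and 33 members in edgeR and DESeq2, beside 0% of all genes. In edgeR 0 members had an unadjusted p under 0.05, in a fit without the block though same-numbered libraries deviated together. With the block 0 passed as well. On simulated counts the unblocked fit recovered 33.7% of genes changed by 1 on the log2 scale in 1181-Ctrl, and 3.03% at 0.5. In 1014-Ctrl it recovered 81% and 49.5% and in 1181-Grpr 61.2% and 14%, without the libraries against their labels. Those libraries were kept in the fits of all 12 libraries that gave 0 calls. Changes of 1 on the log2 scale could therefore be missed, in 1181-Ctrl most of them, and smaller changes more often. Grpr, the transgene of 1181-Grpr, was at 17.7, 9.03 and 8.49 CPM in its mock libraries. Mock libraries of 1014-Grpr had 126, 108 and 141 CPM, those of 1057 274, 276 and 273 CPM and those of 1064 950, 1284 and 786 CPM. On GRP the level was 79.9, 19.1 and 39.5 CPM in 1181-Grpr and 399, 570 and 620 CPM in 1014-Grpr. It was then 205, 197 and 210 CPM in 1057 and 472, 508 and 519 CPM in 1064. Whether the level of Grpr has a part in the absence of calls in 1181-Grpr was not tested.

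**Figure D3:**
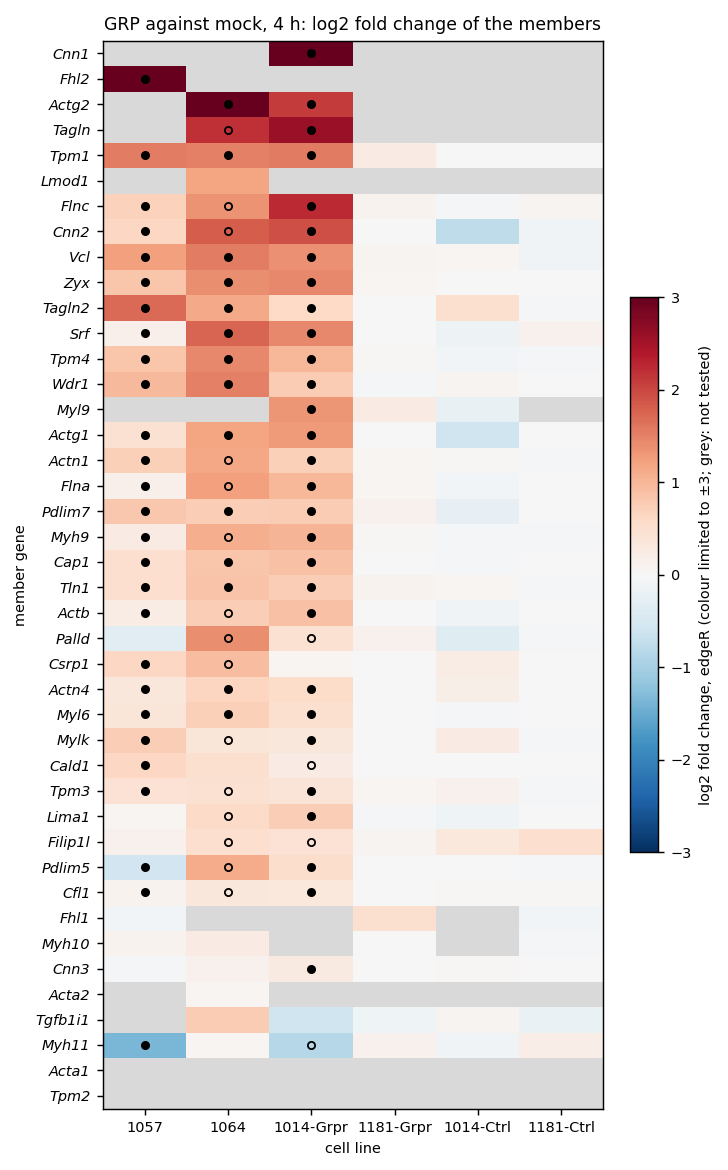
Log2 fold change of each member on GRP against mock in the 6 lines. Rows are members and columns are lines, colour runs from -3 to 3, a filled dot marks an adjusted p under 0.05, an open ring marks a call made only with the replicate block, and grey marks a gene not tested. Filled dots number 27 in 1057, 14 in 1064 and 29 in 1014-Grpr, those of Fhl2 and Myh11 in 1057, Actg2 in 1064 and Actg2, Tagln and Cnn1 in 1014-Grpr included, and none stand in 1181-Grpr or the vector lines.

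Srf itself rose in the 3 responding lines, by 0.16 to 1.75 on the log2 scale. In 1014-Grpr it was at 67.0, 55.4 and 60.3 CPM in mock and 168, 184 and 140 CPM on GRP, a log2 fold change of 1.43 ± 0.106 (SE, adjusted p = 2.45e-06). In 1064 the libraries were at 66.6, 41.5 and 60.9 CPM and at 289, 149 and 129 CPM (1.75 ± 0.387, adjusted p = 0.0268). In both lines every GRP library lay above every mock library, with GRP replicate 1 of 1064 highest of all. In 1057 the step was small, from 42.1, 41.0 and 39.1 CPM to 45.5, 45.5 and 45.6 CPM, a log2 fold change of 0.16 ± 0.037 (adjusted p = 0.00143) that passed with the spread of that line alone and had an adjusted p of 0.829 in one fit of all 72 libraries. In 1181-Grpr the mock and GRP libraries overlapped, at 59.0, 95.1 and 74.6 CPM and at 62.8, 90.2 and 73.3 CPM.

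The cytoplasmic actins, the monomers of most non-muscle filaments, rose with Srf. Actg1 was at 478, 389 and 347 CPM in mock libraries of 1014-Grpr and 978, 1021 and 952 CPM on GRP (log2 fold change 1.28 ± 0.116, adjusted p = 9.78e-06). It rose by 1.18 ± 0.258 in 1064 (adjusted p = 0.0259) and by 0.46 ± 0.031 in 1057. About 51.1% of the 100-base stretches of Actg1 transcripts also occur in other genes, mostly processed pseudogenes, so its counts are uncertain. Actb was at 2219, 1820 and 1765 CPM in mock libraries of 1014-Grpr and at 3804, 3710 and 3277 CPM on GRP. It rose by 0.89 ± 0.101 there and by 0.22 ± 0.028 in 1057. In 1064 its log2 fold change was 0.74 ± 0.216 (adjusted p = 0.0693) and it passed with the block (0.76, adjusted p = 7.41e-04).

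The muscle actins were scarce and are given as counts. Actg2, the enteric smooth muscle actin, had 6, 0 and 2 counts in mock libraries of 1064 and 37, 34 and 46 on GRP, a depth-scaled ratio of 15.6 (95% interval 7.64 to 36.9, counting error only). In 1014-Grpr it had 2, 4 and 9 counts and then 26, 23 and 26 (ratio 4.29, 2.44 to 8.04). The GRP libraries lay above every mock library in both lines, and Actg2 had entered the fits through those GRP libraries. It stayed at 0 or 1 count in mock and GRP libraries of 1057. Acta2, the vascular smooth muscle actin, was too low to test in 1014-Grpr, where it had 0 counts in the 3 mock libraries and 17 in the GRP libraries, at least 4.86-fold higher against a floor of 3 counts over the group. In 1064, where it was expressed, Acta2 had a log2 fold change of 0.05 ± 0.849.

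The calponins and transgelins bind along actin filaments. Cnn2 was at 47.8, 42.7 and 35.6 CPM in mock libraries of 1014-Grpr and at 159, 175 and 147 CPM on GRP (log2 fold change 1.93 ± 0.113, adjusted p = 6.00e-07). It rose by 0.61 ± 0.078 in 1057, and in 1064 it went from 165, 40.0 and 120 CPM to 569, 290 and 280 CPM (1.81 ± 0.590, adjusted p = 0.0989, with the block 1.88 and 2.82e-04). Cnn1, the smooth muscle calponin, had 0, 1 and 0 counts in mock libraries of 1014-Grpr and 16, 58 and 55 on GRP. The ratio was 111 with an interval of 19.5 to 4402, since it rests on a single mock count. Cnn3, the acidic calponin, rose by 0.27 in 1014-Grpr, had -0.04 in 1057 and 0.13 in 1064, and passed in neither of the latter.

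Tagln2 rose in all 3 lines, in 1057 from 90.9, 83.8 and 77.0 CPM to 264, 285 and 272 CPM (log2 fold change 1.71 ± 0.049, adjusted p = 2.75e-15). The step was 1.13 ± 0.227 in 1064 and 0.59 ± 0.082 in 1014-Grpr. Its smooth muscle relative Tagln (SM22) had 4, 5 and 2 counts in mock libraries of 1014-Grpr and 14, 29 and 38 on GRP (ratio 6.31, 3.35 to 13.1). In 1064 Tagln had 12, 5 and 22 counts in mock and 134, 11 and 19 on GRP, so that its log2 fold change of 2.18 came from GRP replicate 1 and did not pass (adjusted p = 0.148, with the block 1.94 and 0.0294). Of the exon bases of Tagln, 67.9% are overlapped by genes on the other strand, and the strand setting of the counting is not stated.

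Of the 4 tropomyosins, which coat filaments and gate myosin, Tpm1 and Tpm4 rose in 1057, 1064 and 1014-Grpr and Tpm3 in 1057 and 1014-Grpr, whereas Tpm2 could not be tested. Tpm1 went from 158, 165 and 160 CPM to 441, 474 and 486 CPM in 1057 (log2 fold change 1.54 ± 0.040, adjusted p = 1.05e-15). In 1014-Grpr it went from 222, 190 and 234 CPM to 564, 664 and 680 CPM (1.56 ± 0.115), and in 1064 from 242, 174 and 374 CPM to 875, 735 and 665 CPM (1.52 ± 0.263, adjusted p = 0.0113). The log2 fold changes of the 3 lines thus lay between 1.52 and 1.56, and no GRP library overlapped a mock library. Tpm4 rose by 0.83 ± 0.036 in 1057, from 300, 304 and 313 CPM to 510, 558 and 565 CPM, by 1.43 ± 0.341 in 1064 and by 0.99 ± 0.084 in 1014-Grpr. Tpm3 rose by 0.44 in 1057 and 0.39 in 1014-Grpr, and had 0.45 in 1064, where it passed with the block (adjusted p = 2.55e-04). Of its 100-base stretches 45.7% also occur in other genes.

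**Figure D4:**
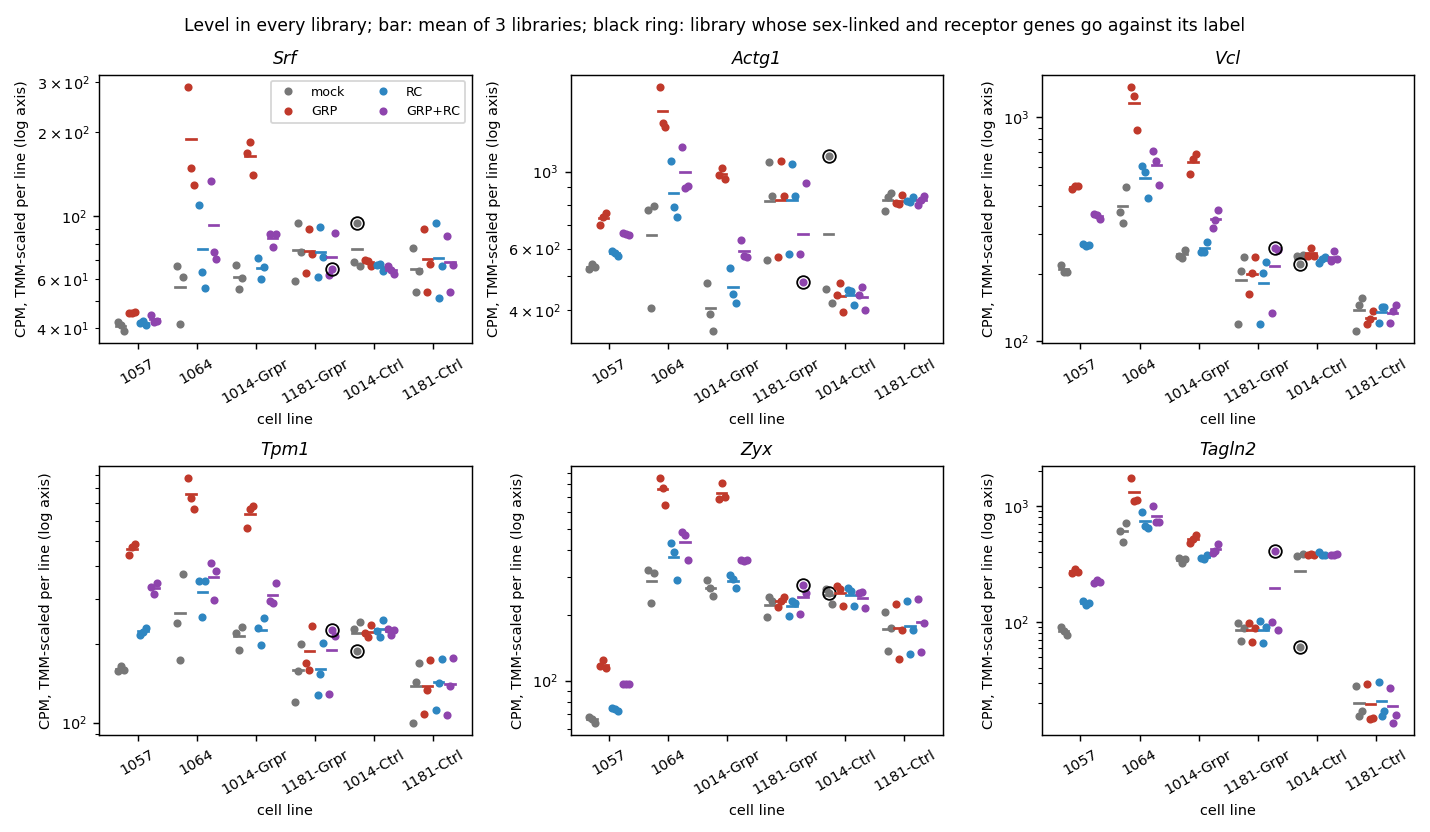
CPM of named members in every library. Panels are members, the x axis groups libraries by line and treatment, each point is 1 library, bars mark means, and rings mark the 2 libraries that went against their labels. In 1057, 1064 and 1014-Grpr the GRP points of Vcl and Tpm1 lie above all mock points of the line, and in the other 3 lines they overlap.

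The proteins of focal adhesions, which tie filaments to integrins, included members called in each of the responding lines. Vcl, vinculin, was at 220, 205 and 204 CPM in mock libraries of 1057 and at 479, 493 and 493 CPM on GRP (log2 fold change 1.22 ± 0.033, adjusted p = 1.31e-15). In 1064 it went from 376, 339 and 486 CPM to 1368, 1244 and 873 CPM (1.54 ± 0.217, adjusted p = 0.00538), and in 1014-Grpr from 241, 236 and 256 CPM to 557, 648 and 689 CPM (1.37 ± 0.091). The groups did not overlap in any of the 3 lines, and Vcl passed under each alternative tried in them. Genes on the other strand overlap 25.5% of its exon bases.

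Zyx rose by 0.84 ± 0.035 in 1057, 1.40 ± 0.198 in 1064 (adjusted p = 0.00538) and 1.45 ± 0.084 in 1014-Grpr, where it went from 290, 267 and 246 CPM to 686, 814 and 698 CPM. Tln1, talin, which links integrins to actin, rose by 0.51 in 1057, 0.86 in 1064 and 0.74 in 1014-Grpr. The cross-linker Actn4 rose by 0.34, 0.64 and 0.55 in the same order. Its paralog Actn1 rose by 0.72 in both 1057 and 1014-Grpr. In 1064 Actn1 had 1.15 ± 0.801 (adjusted p = 0.456, with the block 1.07 and 0.00184), its mock libraries at 96.7, 18.6 and 48.7 CPM.

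The LIM-domain members and caldesmon gave calls in some lines and not in others. Fhl2, a LIM-only coactivator with a CArG box at each start, had 1, 1 and 0 counts in mock libraries of 1057 and 14, 25 and 21 on GRP (ratio 31.6, interval 8.37 to 267). It was at 0 in all mock and GRP libraries of 1014-Grpr and had 9, 1 and 1 counts against 5, 6 and 2 in 1064. Csrp1 and the caldesmon gene Cald1 rose in 1057 (both by 0.62). Csrp1 had 0.06 in 1014-Grpr, where it did not pass, and 0.92 in 1064 (adjusted p = 0.0914, with the block 0.90 and 3.71e-05). Cald1 had 0.24 in 1014-Grpr (adjusted p = 0.186, with the block 0.24 and 5.29e-05) and 0.47 in 1064, where it passed in neither fit. Pdlim7 rose in all 3 lines, by 0.80, 0.74 and 0.76 in 1057, 1064 and 1014-Grpr. Lima1 rose in 1014-Grpr by 0.74, and in 1064 it passed with the block alone.

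Pdlim5, an adaptor of Z-discs and stress fibres, went in opposite directions. In 1057 it fell by 0.57 on the log2 scale, from 315, 308 and 311 CPM to 211, 212 and 205 CPM (SE 0.026, adjusted p = 2.50e-12). In 1014-Grpr it rose by 0.53 ± 0.072, from 186, 192 and 200 CPM to 247, 301 and 283 CPM. In 1064 it was at 220, 138 and 144 CPM and then at 496, 320 and 270 CPM (1.11 ± 0.322, adjusted p = 0.0675, with the block 1.09 and 2.64e-05). The GRP effects in 1057 and 1064 differed by -1.70 ± 0.337 (adjusted p = 0.0138).

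Non-muscle myosin, the motor of these filaments, was called through several subunits. Myh9, the heavy chain of non-muscle myosin IIA, rose by 1.03 ± 0.065 in 1014-Grpr, from 1105, 1084 and 1031 CPM to 2054, 2329 and 2196 CPM. It rose by 0.25 in 1057 and passed in 1064 with the block alone (1.03, adjusted p = 7.26e-05, without it 1.08 and 0.0583). Myl6, the essential light chain, rose in all 3 lines by 0.36, 0.71 and 0.47. Mylk rose by 0.73 in 1057 and 0.34 in 1014-Grpr, and passed in 1064 with the block alone. Myl9 rose by 1.33 ± 0.449 in 1014-Grpr (14, 48 and 16 counts against 40, 107 and 72, adjusted p = 0.0423). Myh11, the smooth muscle heavy chain, had 13, 11 and 9 counts in mock libraries of 1057 and 3, 4 and 5 on GRP.

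Filamins, which join filaments into networks, were split by abundance. Flnc was at 27.2, 37.5 and 22.0 CPM in mock libraries of 1014-Grpr and 81.2, 210 and 121 CPM on GRP (log2 fold change 2.24 ± 0.316, adjusted p = 2.69e-04), whereas in 1057 it lay under 1 CPM in these libraries and rose by 0.69 (adjusted p = 0.0419). In 1064 Flnc passed with the block alone. Flna rose by 0.99 in 1014-Grpr and 0.16 in 1057, and its 1.24 in 1064 passed only with the block (1.33, adjusted p = 2.83e-04). Among regulators of turnover, Wdr1, which helps cofilin to disassemble filaments, rose in all 3 lines by 0.97, 1.52 and 0.76, and Cap1, which recycles monomers, by 0.51, 0.83 and 0.88. Cofilin (Cfl1) itself rose by 0.11 in 1057 and 0.32 in 1014-Grpr, and passed in 1064 with the block alone.

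Across the 3 lines, 13 members rose in each: Srf, Actg1, Tagln2, Myl6, Vcl, Tpm1, Tpm4, Zyx, Actn4, Pdlim7, Wdr1, Tln1 and Cap1. With the block for 1064 the number was 22. A further 10 rose in none of them without the block, namely Acta1, Acta2, Myh10, Myh11, Filip1l, Tpm2, Lmod1, Fhl1, Tgfb1i1 and Palld. Of these Acta1 and Tpm2 were not tested in any line. Averaged over the 4 GRPR-expressing lines in the fit of all libraries, 28 of 40 members rose and 0 fell, beside 13.3% and 12.7% of genes, or 27 of 38 without Cnn1 and Fhl2, beside the same shares. Averaged over the vector lines 0 rose and 1 fell, Myh10, beside 0.00603% and 1.08% of genes, and that call was lost without the library that went against its label, beside 0% of genes.

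The difference of the GRP effect between a receptor line and its vector line was tested directly. For 1014 it was above 0 and passed for 21 of 35 members and for 0 below 0, beside 9.08% and 4.5% of genes, or 19 of 32 when Actg2, Tagln and Cnn1 were kept out, beside 8.8% and 4.74%. It was 1.58 ± 0.162 for Srf (adjusted p = 1.90e-06), 1.54 ± 0.157 for Tpm1 and 1.30 ± 0.116 for Vcl. Tpm1 in 1014-Ctrl was at 230, 189 and 243 CPM in mock and 222, 213 and 237 CPM on GRP, and its Srf at 68.8, 95 and 66.7 CPM and then 70.2, 69.6 and 66.6 CPM. Mock replicate 2, the library that went against its label, was the lowest of its group for Tpm1 and the highest for Srf. Without that library 24 members passed, beside 10.8% of genes higher and 6.03% lower, and with the replicate block in addition 29, beside 21.4% and 17.9%. Tagln2 and Cnn3 were among those that then passed (0.60, adjusted p = 2.55e-04, and 0.33, adjusted p = 0.00409, without the block).

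For 1181 the same difference passed for 0 of 36 members, with 0 at an unadjusted p under 0.05, beside 0% of genes. It was -0.15 ± 0.350 for Srf and 0.22 ± 0.395 for Tpm1, with errors as large as or larger than the differences. Between 1057 and 1064, 1 of 38 members passed, Pdlim5, beside 0.709% of genes higher and 0.59% lower in 1057. With the block 3 members were higher and 15 lower, beside 9.37% and 7.26% of genes. The difference for Srf was -1.60 ± 0.403 (adjusted p = 0.058, with the block -1.51 and 9.18e-06). With replicate 2 left out of both lines 0 members passed, and 2 with replicate 1 or 3 left out.

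RC given with GRP brought most of these genes back towards mock in 1014-Grpr. Against GRP alone, 26 of 35 members were lower and 0 higher, beside 8.06% and 3.71% of genes, or 23 of 32 without Actg2, Tagln and Cnn1, beside 7.8% and 3.84%. Since this comparison and that of GRP with mock share the GRP libraries, the values are given side by side: Srf fell by 0.97 after a log2 fold change of 1.43, Cnn2 by 1.21 after 1.93, Zyx by 1.04 after 1.45, Tpm1 by 1.04 after 1.56 and Vcl by 0.85 after 1.37. Tpm1 in GRP+RC libraries was at 294, 289 and 346 CPM, and Srf at 86.7, 78.2 and 86.7 CPM, between their mock and GRP libraries. Cnn1 was back at 1, 1 and 2 counts. Against mock, 4 members stayed higher on GRP+RC, namely Actg1 (0.55), Cnn2 (0.72), Vcl (0.52) and Zyx (0.41), beside 0.765% of genes, and with the block 20, beside 10.1%. On the lower side 0 members passed, beside 0.182% of genes and, with the block, 7.21%. These 4 calls were thin: 0 were left without mock replicate 2 or GRP+RC replicate 3, 1 without GRP+RC replicate 2 or mock replicate 3, and 2 without replicate 1 of either group, whereas DESeq2 gave 10. In the fit of all 72 libraries GRP+RC passed for 12 members against GRP and for 0 against mock. RC alone changed 0 of 35 members, with 0 at an unadjusted p under 0.05 and 0 in DESeq2, beside 0% of genes higher and 0% lower.

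In 1057 RC alone was not inert for these genes. It raised 17 of 33 members and lowered 1, beside 13% and 11.3% of genes, though none by more than 1 on the log2 scale. Tagln2 went from 90.9, 83.8 and 77.0 CPM to 152, 141 and 146 CPM (0.80 ± 0.049, adjusted p = 1.71e-09), Tpm1 to 218, 224 and 231 CPM (0.48 ± 0.040) and Vcl to 273, 267 and 269 CPM (0.37 ± 0.033). Pdlim5, the member that fell on GRP, fell by 0.35 on RC as well. For these members every RC library lay between the mock and the GRP libraries. Other members did not follow this order. Actb was at 1902, 1886 and 1839 CPM on RC, above its GRP libraries at 1805, 1771 and 1787 CPM. Lima1 was at 314, 309 and 315 CPM on RC, above its GRP libraries at 286, 276 and 280 CPM.

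With GRP and RC together in 1057, 20 members were lower than with GRP and 2 higher, Actb and Lima1, beside 13.7% and 11% of genes, or 19 and 2 of 32 without Fhl2, beside 13.9% and 11.1%. Vcl fell by 0.43 and Tpm1 by 0.50, both less than in 1014-Grpr. Wdr1 fell by 0.47 and Tagln2 by 0.29, whereas Actn1 fell by 0.73, to 0.01 below mock. Against mock 22 members were still higher and 1 lower on GRP+RC, beside 21.3% and 22.9% of genes, Tagln2 at 219, 230 and 221 CPM among them. Whether the response to RC differed between lines was not tested. In a fit of all 72 libraries, which shares 1 estimate of the spread, RC alone passed for 0 members of 1057, GRP+RC against GRP for 0 and GRP+RC against mock for 8.

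In 1064 RC with GRP gave 0 calls against GRP (17 members at an unadjusted p under 0.05, 4 lower in DESeq2), beside 0% of genes higher and 0.029% lower. With the block 26 members were lower and 0 higher, beside 10.9% and 10.3% of genes (25 of 35 without Actg2, beside 11.1% and 10.5%), among them Tpm1 (-1.09, adjusted p = 0.00355), Wdr1 (-0.93, 0.00665) and Vcl (-0.92, 0.0062). Vcl on GRP+RC was at 706, 636 and 498 CPM. Against mock GRP+RC gave 0 calls and 4 members at an unadjusted p under 0.05, and RC alone gave 0 and 0, each beside 0% of genes. DESeq2 gave 0 for both.

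**Figure D5:**
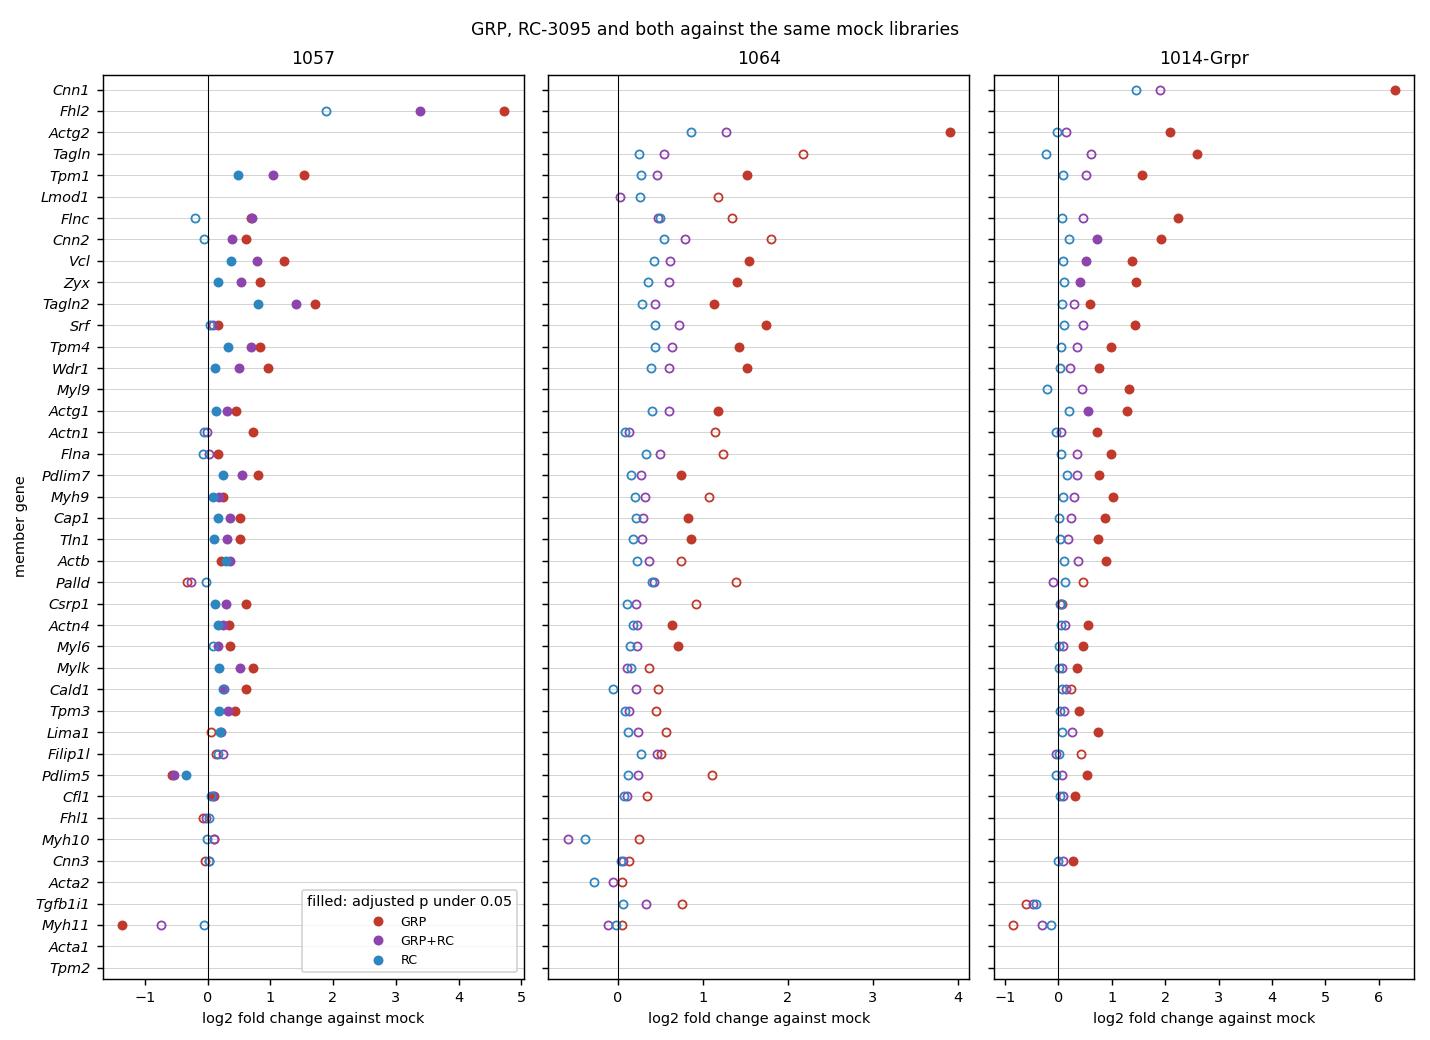
Log2 fold change against mock under GRP, GRP+RC and RC in 1057, 1064 and 1014-Grpr. Rows are members (empty where not tested), the x axis is log2 fold change without error bars, and filled points have an adjusted p under 0.05. In 1014-Grpr every RC point is open, that of Cnn1 farthest from 0 (1.46), whereas in 1057 those of Tagln2 (0.80) and Tpm1 (0.48) are filled.

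The partners and neighbours of SRF were examined as further lists, which share some libraries and were not set against chance. Their counts stand beside the shares given above for all genes on GRP, higher and lower: 25.7% and 26.9% in 1057, 3.62% and 2.76% in 1064 (20.5% and 23% with the block) and 16.3% and 12.7% in 1014-Grpr (27.3% and 26.3% with the block). Of the 5 MRTF and TCF partners tested, 3 rose and 1 fell on GRP in 1057, 1 and 0 in 1064 (3 and 1 with the block) and 1 and 0 in 1014-Grpr (2 and 1 with the block). Mrtfa, the actin-sensing coactivator, rose by 0.52 in 1057. It had 0.34 in 1064 (adjusted p = 0.129, with the block 0.33 and 0.00161) and 0.11 in 1014-Grpr (adjusted p = 0.177, with the block 0.11 and 0.0495).

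Of the 10 immediate early genes ascribed to TCF and SRF, 10 of 10 rose in 1057, 7 of 10 in 1064 (9 with the block) and 9 of 9 in 1014-Grpr, and 0 fell. Fosb rose by 2.68, 3.07 and 3.10 in these lines, Nr4a1 by 2.89, 2.66 and 1.49 and Egr3 by 2.07, 1.77 and 2.65. Further targets of MRTF and SRF outside the members gave 8 higher and 4 lower of 16 in 1057, 3 and 0 of 16 in 1064 (12 and 1 with the block) and 9 and 2 of 17 in 1014-Grpr (10 and 2 with the block). Ccn1, a secreted matricellular protein, rose by 4.19 ± 0.114 in 1057 and 5.49 ± 0.499 in 1014-Grpr and had 4.23 ± 1.194 in 1064 (adjusted p = 0.0627, with the block 4.13 and 6.37e-05). Ccn1 (CYR61) is also among the genes that the authors scored for YAP1 activation. The integrin subunit Itga5 rose in all 3 lines by 0.45, 0.96 and 1.43.

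Of 20 genes of monomer and filament turnover, 14 rose and 2 fell in 1057, 5 and 0 of 19 in 1064 (16 and 1 with the block) and 15 and 0 of 18 in 1014-Grpr (16 and 1 with the block). Vasp, which speeds filament growth, rose by 0.52, 1.49 and 1.35, and the Arp2/3 subunit Actr3 by 0.38, 0.99 and 1.00. The 6 YAP and TEAD genes gave 3 higher and 3 lower in 1057, 0 and 0 in 1064 (3 and 1 with the block) and 2 and 0 in 1014-Grpr (3 and 1 with the block). This is RNA of the factors themselves, which does not measure their activity. In 1181-Grpr and the vector lines each of these lists gave 0 calls in the edgeR fit.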

How the data were processed

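The authors prepared stranded polyA libraries (TruSeq Stranded mRNA), sequenced them as paired reads of 100 bases on a NovaSeq, checked them with FastQC 0.11.5 and aligned them with STAR to mm10 (GRCm38.p5) with GENCODE annotation. The strand setting of counting is not given in the sources used here. They deposited raw counts per gene and TPM values, each as a table of 50600 genes by 72 libraries (0 columns belong to no sample). In 12 TPM columns the deposited decimals are written with a comma. The TPM columns sum to 999999 to 1000001.

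From the counts, each line was fitted alone (12 libraries) with edgeR 4.0.16 in R 4.3.3 (filterByExpr, TMM scaling, quasi-likelihood F test), and p-values were adjusted by Benjamini-Hochberg over all genes tested. A member passed at an adjusted p under 0.05. Standard errors were taken from the F statistic, as the size of the log2 fold change over the root of F. Comparisons between lines used one fit of all 72 libraries, and differences of GRP effects a fit of the pair of lines. CPM are counts divided by the TMM-scaled library size. Ratios of scarce counts have exact conditional 95% intervals, which cover counting error only. They make no allowance for members that entered through their GRP libraries. DESeq2 1.42.0 and limma 3.58.1 (log2 of TPM plus 1 or 0.1) were alternatives, as were other filters, the replicate block and leaving out libraries. The fits were tested on simulated counts.

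Same-numbered libraries deviated together in 5 of the 6 lines, with every GRP and mock pair correlated above 0.1 after group means were removed (0.118 to 0.852). In 1057 the pairs gave 0.008, 0.045 and 0.048. No pair of replicates agreed within sampling noise (smallest chi-square per degree of freedom 2.556).

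The members and all gene lists were chosen with earlier results of these data known. Values of every library are given for Srf, Actb and Actg1 and for at most 12 members that passed with an absolute log2 fold change above 1 in GRP against mock in a GRPR-expressing line, by mean log2 fold change over these lines. Of each further list at most 4 genes are named, those with the largest mean change. Some lists that were tested are not reported here. Library values of other members (Pdlim5, Myh9, Myh11, Myl9, Actn1, Acta2) were added after they were seen. Promoter windows came from RefSeq (GRCm38.p6) and overlaps of genes from GENCODE. Python 3.11.15, pandas 2.3.3, scipy 1.17.1 and matplotlib 3.10.9 were used.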

Additional observations from a re-analysis of the deposited data

Results flagged for a closer look

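For 21 members the GRP effect differed between 1014-Grpr and its vector line 1014-Ctrl by the test of the difference itself. When Actg2, Tagln and Cnn1 were kept out, 19 of 32 members passed. The differences of log2 fold changes were 1.58 for Srf, 1.00 for Actb and 1.87 for Actg1. They were 2.64 for Tagln, which had enough counts to be tested only through the GRP libraries of 1014-Grpr, 2.69 for Cnn2, 0.53 for Myl6 and 1.07 for Myh9. Among proteins of adhesions and cross-links they were 1.30 for Vcl, 1.07 for Flna, 2.29 for Flnc, 1.42 for Zyx, 0.67 for Actn1, 0.68 for Tln1 and 0.83 for Palld. The tropomyosins gave 1.54 for Tpm1 and 1.08 for Tpm4. LIM proteins gave 0.51 for Pdlim5, 1.01 for Pdlim7 and 0.86 for Lima1, and regulators of turnover 0.67 for Wdr1 and 0.91 for Cap1.

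Without 1014-Ctrl mock replicate 2, the library against its label, the values of Actg1 (1.29), Cnn2 (1.91) and Pdlim7 (0.61) were lower and still passed. That of Palld (0.68, adjusted p = 0.0937) no longer passed. The value of Tagln was then 2.66, given without a p because it entered through its GRP libraries. Pdlim5 differed between 1057 and 1064, by -1.70.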

How the results depend on the processing

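The log2 fold changes of named members on GRP kept their sign under every alternative in the 3 responding lines: 258 recomputed values kept their side of the threshold and 2 lost it in 1014-Grpr, 206 and 14 in 1057, and 213 and 16 in 1064, where 11 more gained it. Apart from Srf, Actb and Actg1 these members were named because they passed in the same libraries, so the kept signs follow in part from that choice. The values include Fhl2 in 1057, Actg2 in 1064 and Actg2, Tagln and Cnn1 in 1014-Grpr, which entered through their GRP libraries. Counts of members that pass changed as follows. One fit of all 72 libraries gave, in 1057, 13 for GRP, 0 for GRP+RC against GRP, 8 for GRP+RC against mock and 0 for RC, in 1064 26 for GRP and 12 for GRP+RC against GRP, in 1014-Grpr 12 and 0 for GRP+RC against GRP and mock, and in 1014-Ctrl 1 for GRP, 2 for GRP+RC and 1 for RC against mock. The replicate block gave 29 for GRP and 26 for GRP+RC against GRP in 1064, 20 for GRP+RC against mock in 1014-Grpr and 18 for the difference of GRP effects between 1057 and 1064. In 1057, whose numbers do not pair the libraries (5 of 12 correlated best with their own number), the block gave 27 for GRP. DESeq2 gave 4 for GRP+RC against GRP in 1064, 10 for GRP+RC against mock in 1014-Grpr and 3 for 1057 against 1064. No filter on low counts gave 8 and 2 for the latter pair. Leaving out the libraries that went against their labels gave 1 for GRP in 1181-Grpr with the block, 0 for the mean of the vector lines and 1 for 1014-Grpr against 1014-Ctrl at rest. Leaving these libraries out with DESeq2, or with the block in differences between lines, was chosen after seeing the data. So was a fit of genes with 10 counts in 3 libraries outside each group compared. Without the block it moved no count of members by over 1.5 times, and with the block it gave 28 for GRP and 25 for GRP+RC against GRP in 1064 and 20 for GRP+RC against mock in 1014-Grpr. The cause of these shifts was not tested.

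Leaving out 1 library at a time gave 25 to 27 for GRP, 18 to 22 for GRP+RC against GRP, 22 to 24 for GRP+RC against mock and 14 to 20 for RC in 1057. It gave 4 to 14 for GRP in 1064, 27 to 30 for GRP, 20 to 26 for GRP+RC against GRP and 0 to 5 for GRP+RC against mock in 1014-Grpr. Leaving out a replicate number gave 22 to 26 for the mean of the GRPR-expressing lines, 0 for that of the vector lines, and at rest 1 to 3 in 1014, 5 to 11 in 1181 and 19 to 30 for 1057 against 1064. The differences of GRP effects gave 16 to 22 for 1014, 0 for 1181 and 0 to 2 for 1057 against 1064. In the 3 lines with no calls, 79 of 660 recomputed values changed sign, lying between -0.22 and 0.37, and 1 passed.

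Low depth limits Cnn1, Fhl2, Actg2, Tagln and Acta2, where 1 count per library is within 3 counts of 0.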
